A study of Mus musculus with 23 samples.

Results

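Heterogeneous nuclear ribonucleoprotein (hnRNP) genes encode abundant nuclear proteins that coat nascent pre-mRNA and act in splicing, export, stability and translation. Their own transcripts are highly expressed, and several are known to be regulated through alternative splicing of their own pre-mRNA. In neural tissue the family is best known for splicing control and for the transport of mRNA along axons and dendrites. CTCF is a zinc finger protein that shapes chromatin loops and also binds RNA, and the sites described here were called in RNA purified with CTCF, on transcripts of these genes, and say nothing of where the hnRNP proteins bind.

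The 10 genes Hnrnpa2b1, Hnrnpa1, Hnrnpa3, Hnrnpab, Hnrnpc, Hnrnpd, Hnrnpk, Hnrnpl, Hnrnpm and Hnrnpu were examined among 55413 annotated mouse genes on chromosomes 1 to 19, X and Y. The set was chosen by family membership, and it was selected on a readout in 1 respect: Hnrnpa2b1 was among the genes with the largest fall in sites in NPCs carrying ΔZF1 CTCF. The NPC-ΔZF1 to NPC-WT values below are therefore a description and carry no weight as evidence. Ratios of either NPC list to NPC-noXL share a side with that contrast, so for Hnrnpa2b1, and for sums and counts that hold it, they are not independent of the choice. A site belonged to a gene when it lay on the strand of the gene within its GENCODE body on mm10.

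CTCF-bound RNA had been mapped by iCLIP2: UV irradiation joins a protein covalently to the RNA it touches, and reverse transcription tends to stop next to the joined nucleotide, so that read starts mark crosslinks. All cells derived from the mouse embryonic stem cell (ESC) line E14. Both endogenous Ctcf alleles carried an auxin-inducible degron (CTCF-AID2), and a doxycycline-inducible Flag-Halo-tagged rescue CTCF, either wild type (WT) or with a deletion in zinc finger 1 (ΔZF1), had been placed at the Tigre locus. All 6 groups received 1 µM 5-Ph-IAA, which degrades endogenous CTCF, with 1 µg/mL doxycycline for 24 hours. ESC-WT, ESC-ΔZF1 and NPC-ΔZF1 had 4 libraries each and NPC-WT had 3, all irradiated with 400 mJ/cm2 at 254 nm. ESC-noXL and NPC-noXL, with 4 libraries each, came from the WT rescue line without UV, so no control without UV from the ΔZF1 line was analysed. NPCs were neural progenitor cells after 2 days of differentiation. Each rescue line was 1 clone, so a difference between the rescue proteins cannot be told apart from a difference between clones. RNA was purified from nuclei with anti-Flag beads.

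The values were single crosslinked nucleotides that the authors called with PureCLIP on the merged libraries of each group, giving 1 list per group. With a single pooled list per group there is no replicate error, and conditions could not be tested against each other. Ranges in parentheses are 95% intervals (Wilson for shares) and cover counting error only. Neighbouring sites can come from the same RNA contact, whereas the intervals treat sites as independent and are therefore too narrow. The read depth behind the lists is unknown. The lists held from 102002 genic sites in NPC-noXL to 429119 in ESC-WT, and a longer list may reflect depth as well as crosslinking. Ratios were therefore divided by the ratio of genic sites between the lists compared. Because the RNA came from bulk cultures, fewer cells with a transcript and fewer transcripts per cell cannot be told apart. RNA levels were not analysed here, so the part of transcript abundance in any count was not tested.

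The transcript of the targeted gene, Ctcf, held 109, 68 and 40 sites in the WT, ΔZF1 and noXL lists of ESCs and 28, 23 and 17 in those of NPCs. These counts come from RNA and do not measure the protein. Of the ESC markers, Esrrb held 460 sites with WT in ESCs and 0 in NPCs, Tfcp2l1 343 and 5, Zfp42 164 and 11, Nanog 85 and 14, and Klf4 66 and 0. Of the NPC markers, Nes held 2 sites with WT in ESCs and 28 in NPCs, whereas Pax6, Sox1, Hes5 and Zic1 had no site in either WT list, so in these lists the NPC label could be checked only by the fewer sites in ESC markers and by Nes. Site counts do not measure marker protein. The study had assessed it by Sox1 staining of the rescue lines without 5-Ph-IAA or doxycycline, a state other than that of these libraries.

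The sequences around the sites are given first. The 29-nt windows below surround the highest-scoring ESC-WT site of each gene, 5′ to 3′ on the RNA strand of mm10, with the crosslinked nucleotide in capitals and T standing for uridine.
Hnrnpa2b1 (chr6:51469833-51469861, minus strand): tctcggctccagcgGcagtagcagcggcg
Hnrnpa1 (chr15:103240438-103240466, plus strand): gttcgttatcgtatTcctttctgctcttt
Hnrnpa3 (chr2:75662855-75662883, plus strand): tggtggaggtggtgGcagcagaggtagtt
Hnrnpc (chr14:52103992-52104020, minus strand): gaggagctcgggggCcattttgtgaggag
Hnrnpab (chr11:51605555-51605583, minus strand): ttaaaggattatttTactaagtttggaga
Hnrnpd (chr5:99978914-99978942, minus strand): tcggccattttaggTggtccgcggcggcg
Hnrnpk (chr13:58402504-58402532, minus strand): tcccctccccctcaCcacagagtgcgcga
Hnrnpl (chr7:28810922-28810950, plus strand): gctgctgccccgggCggagaagcggcgtc
Hnrnpm (chr17:33685388-33685416, minus strand): agcccgctccctcaCacaaagcccagacg
Hnrnpu (chr1:178337775-178337803, minus strand): cggcgccgcccctgCgagaggacgttgcg

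Of these 10 best-scoring sites, 7 lay in a 5′ UTR and 3 in a coding exon, and 5 were within 100 nt of the annotated gene start. Only 3 of the 10 were at uridine, those of Hnrnpa1, Hnrnpab and Hnrnpd. For 8 of the 10 the ESC-noXL list also had a site within 5 nt, the exceptions being Hnrnpab and Hnrnpd. The best sites were thus mostly positions that also appeared without UV. The same held for 9 of 10 best sites of ESC-ΔZF1. Against NPC-noXL it held for 3 of 10 in NPC-WT and 1 of 10 in NPC-ΔZF1, where 8 of the best sites were at uridine.

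The median PureCLIP score of member sites was 3.34 in ESC-WT, beside 2.53 for other genic sites, and was highest in Hnrnpa1 at 8.02 and Hnrnpa2b1 at 7.56. Pooled over the 10 genes, high-scoring sites of both ESC lists were more often near a noXL site. Among ESC-WT member sites at or above percentile 90 of the list by score, 44 of 236, or 18.6% (14.2 to 24.1), had an ESC-noXL site within 5 nt. Among the lower-scoring sites the share was 5.33% (4.25 to 6.67). In ESC-ΔZF1 the contrast was wider, with 40.5% (30.6 to 51.2) of 84 high-scoring sites and 3.83% (2.54 to 5.72) of 575 others. Other genic sites showed the same order, at 22.0% and 6.24% in ESC-WT and 30.8% and 6.62% in ESC-ΔZF1. In NPC-WT the member shares were 12.3% (8.17 to 18.0) and 3.69% (2.49 to 5.44). In NPC-ΔZF1 they were 5.00% (1.38 to 16.5) of 40 high-scoring sites and 3.26% (1.83 to 5.75) of the others, and these intervals overlapped.

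Positions with a site in all 4 UV lists within 5 nt numbered 18 over the 10 genes. Of these, 7 were in coding exons, 4 in 5′ UTRs, 4 in introns, 2 in 3′ UTRs and 1 in a non-coding exon. Hnrnpk and Hnrnpl held 4 each and Hnrnpm held none. At 13 of the 18 no noXL site of either cell type lay within 5 nt. Windows from this set are printed because sites were called there for both rescue proteins in both cell types. The number of such positions was not compared with a shifted expectation.
Hnrnpa2b1, coding exon (chr6:51467214-51467242, minus strand): cacagaagaaagttTgagaaactactatg
Hnrnpc, coding exon (chr14:52081267-52081295, minus strand): cttggactatgactTtcaacgggattatt
Hnrnpc, 5′ UTR (chr14:52098016-52098044, minus strand): acagtgagatttttTtgatcttcagctac
Hnrnpab, intron (chr11:51603331-51603359, minus strand): gtgagcagtgccttTttgtgtgtgtaccc
Hnrnpd, intron (chr5:99977990-99978018, minus strand): cgcacagaaaagctTtttaccagggttgc
Hnrnpk, coding exon (chr13:58394342-58394370, minus strand): ttgcagagatctaaTggcttatgacagaa
Hnrnpk, coding exon (chr13:58394475-58394503, minus strand): cctcctccaccaccAcccagaggggggta
Hnrnpk, 5′ UTR (chr13:58402453-58402481, minus strand): caggcgacagcgctGcagacgccattatc
Hnrnpl, coding exon (chr7:28814197-28814225, plus strand): tctaggatgttcttTacaccatctgtaac
Hnrnpl, non-coding exon (chr7:28816874-28816902, plus strand): attttgatttttttTtttcctgcagtcat
Hnrnpl, coding exon (chr7:28820146-28820174, plus strand): ccctaaggtgaaatTtatgaaaagcaagc
Hnrnpu, 3′ UTR (chr1:178327944-178327972, minus strand): gggaacagatgcttTtagaagccatcatg

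At 11 of the 13 positions the ESC-WT site in capitals was a uridine, and 5 of the 13 windows held the run TTTT. Sites of the other lists could lie up to 5 nt away on another base. The A printed for Hnrnpk scored 0.171 in ESC-WT, where the best score within 5 nt was 20.5. Uridine and TTTT shares of all member sites are given below. The number of T in the 29 nt ranged from 3 to 18 with a median of 8. The other 5 recurrent positions, which did have a noXL site within 5 nt, had no uridine at the centre, no TTTT and a median of 3 T. They lay in Hnrnpa1 (2 positions), Hnrnpa3, Hnrnpl and Hnrnpu. The recurrent coding exon site of Hnrnpa2b1 had best scores of 43.9 with WT and 0.832 with ΔZF1 in ESCs, and of 42.7 and 95.02 in NPCs. Scores are not scaled to depth, so these values do not compare the lists.

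Together the 10 genes carried 1568, 659 and 391 sites in the WT, ΔZF1 and noXL lists of ESCs, and 821, 377 and 225 in those of NPCs. As shares of all genic sites these were 0.365%, 0.303% and 0.259% in ESCs and 0.357%, 0.246% and 0.221% in NPCs. In both cell types the share was highest with WT CTCF and lowest without UV. Per gene, every member had more sites in WT than in ΔZF1 and more in ΔZF1 than in noXL, in both cell types, which is also the order of the list lengths. In ESC-WT the members ranked between 107 and 1801 by number of sites among all genes.

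**Figure D1:**
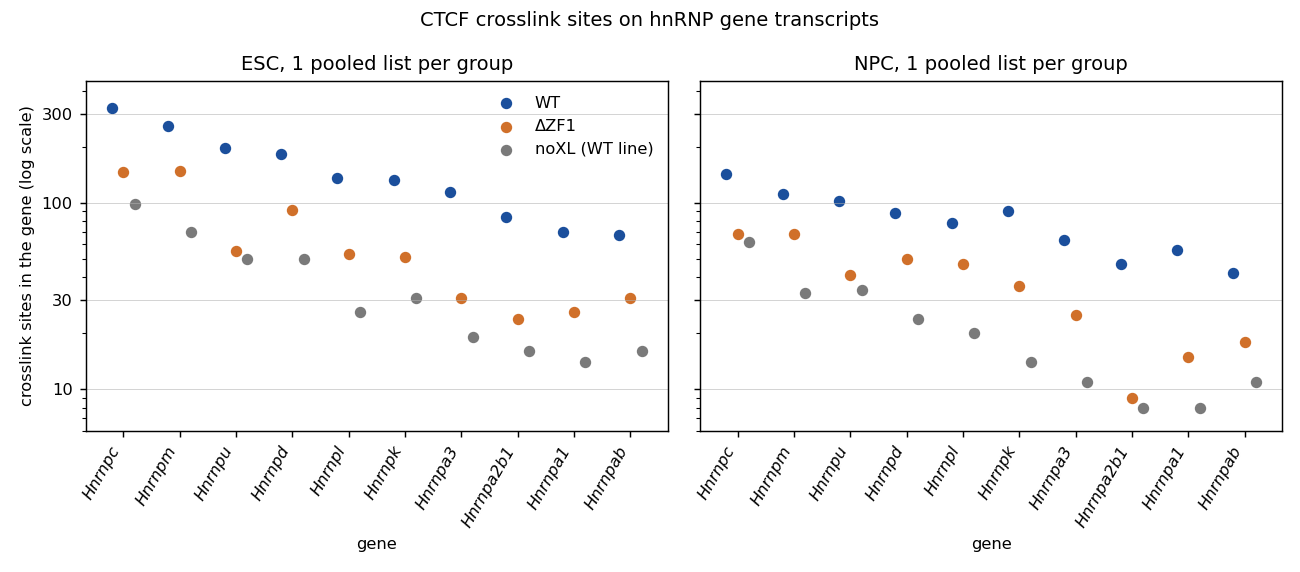
Number of crosslink sites (log scale) in each of the 10 hnRNP genes, with ESC lists on the left, NPC lists on the right, and 1 point per pooled list for WT, ΔZF1 and noXL. Every gene has its WT point on top and its noXL point at the bottom, from 324 sites for Hnrnpc in ESC-WT to 8 for Hnrnpa1 and Hnrnpa2b1 in NPC-noXL.

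Hnrnpa1, Hnrnpa2b1 and Hnrnpa3 encode the closely related A-type proteins of the core hnRNP particle, which also repress splice sites. Hnrnpa2b1 (chromosome 6, 51460932 to 51469894, minus strand) held 84, 24 and 16 sites in the WT, ΔZF1 and noXL lists of ESCs, and 47, 9 and 8 in those of NPCs. Its WT counts were the highest in both cell types. The count of 9 in NPC-ΔZF1 is part of what chose the gene, and none of these counts is scaled to list length. Hnrnpa1 (chromosome 15, 103240432 to 103246692, plus strand) held 70, 26 and 14 sites in ESCs and 56, 15 and 8 in NPCs. Hnrnpa3 (chromosome 2, 75659261 to 75669407, plus strand) held 115, 31 and 19 sites in ESCs and 63, 25 and 11 in NPCs. These 3 genes are similar in sequence and related to processed pseudogenes, and how reads matching several copies were placed is not given in the sources used here, so their counts are uncertain to that extent.

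Hnrnpc (chromosome 14, 52073377 to 52104028, minus strand) encodes the C proteins, which bind runs of uridine in nascent transcripts. It held the most sites of the 10 in 4 of the 6 lists and shared first place with Hnrnpm in NPC-ΔZF1, with 324, 147 and 99 sites in the WT, ΔZF1 and noXL lists of ESCs and 143, 68 and 62 in those of NPCs. In NPCs its ΔZF1 and noXL counts differed by 6 sites although the ΔZF1 list was longer.

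Hnrnpd (chromosome 5, 99955935 to 99978938, minus strand) encodes AUF1, a regulator of mRNAs with AU-rich elements, and Hnrnpab (chromosome 11, 51600100 to 51606847, minus strand) encodes a related protein. Hnrnpd held 183, 92 and 50 sites in the WT, ΔZF1 and noXL lists of ESCs and 88, 50 and 24 in those of NPCs. Hnrnpab held 67, 31 and 16 sites in ESCs and 42, 18 and 11 in NPCs, the lowest WT counts of the 10 genes.

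Hnrnpk (chromosome 13, 58391142 to 58403343, minus strand) encodes a KH-domain protein that binds cytosine-rich RNA. It held 132, 51 and 31 sites in ESCs and 90, 36 and 14 in NPCs. Hnrnpl (chromosome 7, 28808541 to 28822266, plus strand), whose protein binds CA-rich RNA and regulates splicing, held 136, 53 and 26 sites in ESCs and 78, 47 and 20 in NPCs. Hnrnpm (chromosome 17, 33646233 to 33686860, minus strand), another splicing regulator, held 259, 149 and 70 sites in ESCs and 112, 68 and 33 in NPCs. Of the 10 genes, Hnrnpm had the highest ratio of ΔZF1 to WT counts in ESCs, 0.575.

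Hnrnpu (chromosome 1, 178321108 to 178337797, minus strand) encodes a scaffold protein that links RNA to chromatin. It held 198, 55 and 50 sites in ESCs and 102, 41 and 34 in NPCs. With ΔZF1 CTCF in ESCs its count was thus within 5 sites of the noXL count, from a list with more genic sites.

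The comparison of WT with noXL asked whether UV added sites to these transcripts beyond the growth of the whole list. Summed over the 10 genes, the scaled log2 ratio was 0.50 (0.34 to 0.65) in ESCs and 0.69 (0.48 to 0.91) in NPCs. All 10 genes had scaled ratios above 0 in both cell types, with medians of 0.52 in ESCs and 0.70 in NPCs, beside medians of 0.02 and 0.03 over all genes that held 20 or more sites across the compared pair of lists (6208 and 4765 genes). In ESCs 1 of 10 genes reached a log2 ratio of 1, as did 8.12% of all genes. In NPCs 4 of 10 did, beside 10.5% of all genes, and 1 of the 4 was Hnrnpa2b1, whose NPC-WT count is part of what chose it. The ESC gene was Hnrnpa3, at 1.03 (0.40 to 1.78). The NPC genes were Hnrnpa1 at 1.49 (0.59 to 2.68), Hnrnpk at 1.43 (0.71 to 2.31), and Hnrnpa2b1 and Hnrnpa3, both at 1.24. Hnrnpc had the lowest ratio in each cell type, 0.19 (-0.12 to 0.53) in ESCs and 0.02 (-0.40 to 0.46) in NPCs. Intervals lay above 0 for 5 genes in ESCs and 7 in NPCs, beside 9.5% and 10.2% of all genes. Those of the other members held 0, and Hnrnpa2b1 was among the 7.

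Against the same noXL lists, the summed scaled log2 ratio with ΔZF1 was 0.22 (0.04 to 0.40) in ESCs. In NPCs it was 0.16 (-0.08 to 0.40), which with the WT value above restates the contrast that chose Hnrnpa2b1 and is a description. Both values turned on single genes: without Hnrnpm the ESC value was 0.14 (-0.06 to 0.34), and without Hnrnpc the NPC value was 0.34 (0.06 to 0.61). No member reached a log2 ratio of 1, beside 7.86% of the 5013 genes measured for ESCs and 7.19% of the 3699 for NPCs, and in NPCs Hnrnpa2b1, with 9 and 8 sites, fell below the 20-site minimum. In ESCs the interval lay above 0 for 1 gene, Hnrnpm, at 0.55 (0.15 to 0.97), and in NPCs for none, beside 10.6% and 10.3% of all genes. Hnrnpu had the lowest value in ESCs, -0.40 (-0.94 to 0.16), and Hnrnpc the lowest in NPCs, -0.46 (-0.95 to 0.04). Point values lay above 0 for 9 of 10 genes in ESCs, beside 2676 of 5013 genes. In NPCs those of 7 of the 9 measured did, beside 1868 of 3699 genes. Because both comparisons use the same noXL lists, the values are side by side and not independent of each other.

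The direct comparison of the rescue proteins gave a summed scaled log2 ratio of ΔZF1 to WT of -0.27 (-0.40 to -0.14) in ESCs. The scaled ratio was below 0 for 9 of 10 genes, with a median of -0.37 beside 0.04 over 6518 genes. None reached -1, as 5.45% of all genes did. Hnrnpa3 at -0.88 (-1.48 to -0.34), Hnrnpu at -0.85 (-1.30 to -0.44) and Hnrnpa2b1 at -0.79 (-1.48 to -0.18) had intervals below 0, as did 9.83% of all genes. Hnrnpm was the only member above 0, at 0.19 (-0.11 to 0.47). Its interval held 0, as did those of the remaining 6 genes.

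In NPCs, the contrast in which Hnrnpa2b1 had been noticed, the summed value was -0.54. Here 2 of 10 genes were at -1 or lower, beside 7.36% of 5274 genes: Hnrnpa2b1 at -1.68 and Hnrnpa1 at -1.25. The other 8 genes lay between -0.71 and -0.12. The median of the 10 was -0.65, that of all genes -0.04. Without Hnrnpa2b1 the summed value was -0.49.

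The deficit with ΔZF1 differed between parts of the transcripts. In ESCs coding exons of the 10 genes held 327 sites with WT, 94 with ΔZF1 and 52 without UV. Scaled to all coding exon sites of the lists, ΔZF1 against WT came to a log2 ratio of -0.89 (-1.22 to -0.56). In introns the counts were 814, 399 and 229, and the ratio scaled to all intron sites was 0.02 (-0.16 to 0.19). For 3′ UTRs the scaled ratio was -0.47 (-0.85 to -0.08), from 209 and 71 sites, and for 5′ UTRs it was -0.09 (-0.66 to 0.48), from 70 and 37 sites. The intervals of coding exons and introns did not overlap. Gene by gene, the coding exon count with ΔZF1 was below the value given by all coding exon sites (a ratio of 0.531 to WT) for 9 of 10 genes, beside 52.8% of 4171 genes with 20 or more such sites. Hnrnpc, with 16 and 9 sites, was the exception.

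With all exon classes together, 5 of 10 genes had an interval below 0 in ESCs, scaled to all exon sites, beside 8.27% of 6253 genes. These were Hnrnpa3 at -1.19 (-2.16 to -0.39), Hnrnpa2b1 at -1.03 (-1.88 to -0.32), Hnrnpu at -1.001 (-1.52 to -0.53), Hnrnpk at -0.64 (-1.26 to -0.08) and Hnrnpl at -0.62 (-1.25 to -0.06). Their intron values, scaled to all intron sites, were -0.54, -0.03, -0.30, 0.15 and 0.11, and each of these intervals held 0. For Hnrnpa2b1 the exon value rests on 16 and 66 sites and the intron value on 8 and 18. Non-coding exon, which includes retained-intron transcripts, made up 4150 of its 6584 exon nt. It made up 3061 of 5953 in Hnrnpl, 3692 of 11599 in Hnrnpu, 1877 of 6466 in Hnrnpk and 78 of 5396 in Hnrnpa3. The split into exon and intron values thus depends on how such sequence is classed, most of all in Hnrnpa2b1 and Hnrnpl. For Hnrnpm these values were an exon value of 0.46 (-0.05 to 0.97) and an intron value of 0.11 (-0.25 to 0.46).

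The steepest of these coding exon differences in ESCs was in Hnrnpa3, with 37 sites for WT and 5 for ΔZF1. Hnrnpk had 55 and 10, Hnrnpa1 25 and 4, Hnrnpab 23 and 4, Hnrnpu 39 and 9, and Hnrnpa2b1 20 and 5. Hnrnpm, with 44 and 22 sites, and Hnrnpl, with 52 and 20, differed less. Per kb of coding exon, which allows genes to be compared, the density in ESC-WT ran from 15.0 sites in Hnrnpd to 37.4 in Hnrnpk with a median of 20.6. The medians were 5.16 sites per kb with ΔZF1, where Hnrnpl was highest at 10.4, and 2.68 without UV. These densities are not scaled to list length, so they compare genes within a list and not lists with each other.

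NPCs gave counts of 229 coding exon sites with WT, 63 with ΔZF1 and 16 without UV, and 346, 225 and 148 intron sites. These belong to the contrast that chose Hnrnpa2b1 and are given as a description. Scaled to the same region, log2 values for ΔZF1 against WT were -0.95 for coding exons, -0.81 for 3′ UTRs and -0.59 for introns, so in this contrast introns were also below 0. Scaled to all genic sites instead, the intron values were -0.05 in ESCs and -0.03 in NPCs and the coding exon values -0.82 and -1.27, so the intron value in NPCs depends on the scaling. All 10 genes had fewer coding exon sites with ΔZF1 than the ratio over all coding exon sites (0.530) gave, beside 48.4% of 2684 genes with 20 or more such sites, which 8 of the 10 had. Relative to noXL, coding exon sites with WT were 14.3 times as many in NPCs and 6.29 times as many in ESCs, and scaled to all coding exon sites the log2 ratios were 2.22 (1.50 to 2.94) and 1.04 (0.62 to 1.46). With ΔZF1 they were 3.94 times as many as in noXL in NPCs, a scaled log2 ratio of 1.28 (0.49 to 2.06), and 1.81 times as many in ESCs, a scaled log2 ratio of 0.15 (-0.33 to 0.64). For NPC-ΔZF1 against noXL the coding exon interval lay above 0, while the whole genes summed gave 0.16 with an interval that held 0. Both are part of the same description. The noXL values behind these ratios, 16 and 52 sites, are small.

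**Figure D2:**
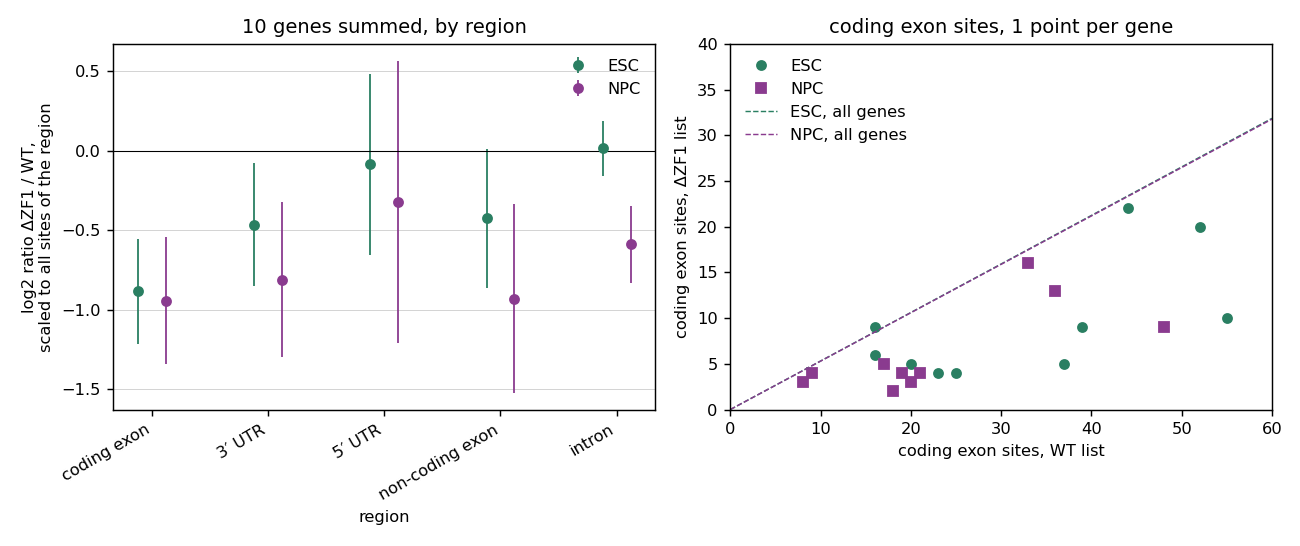
Left, log2 ratio of ΔZF1 to WT sites summed over the 10 hnRNP genes, by region and scaled to all sites of that region, with 95% counting intervals. Right, coding exon sites of each gene in the ΔZF1 list against the WT list, with dashed lines for the ratio over all genes (0.531 in ESCs and 0.530 in NPCs, which nearly coincide). Coding exons lie near -0.9 in both cell types, introns at 0.02 in ESCs and -0.59 in NPCs, and every point but Hnrnpc in ESCs falls below its line.

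Hnrnpa2b1 and Hnrnpk show how these sites lay along a transcript. In Hnrnpa2b1 the ESC-WT sites fell in coding exons (20), the 5′ UTR (5), 3′ UTRs (4), non-coding exons (37) and introns (18). The annotation of this gene holds 13 transcripts, 5 of them of the retained-intron type, which is why much of its intron sequence counts as non-coding exon. In ESC-ΔZF1 the numbers were 5, 3, 0, 8 and 8, and in NPC-ΔZF1 2, 0, 0, 4 and 3. In NPC-WT they were 18, 5, 6, 17 and 1. In Hnrnpk, coding exons took 55 of 132 sites with WT in ESCs and 48 of 90 in NPCs, the highest coding shares of the family at 41.7% and 53.3%. The densest 300 nt of Hnrnpk in ESC-WT held 11 sites, all in coding exon.

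**Figure D3:**
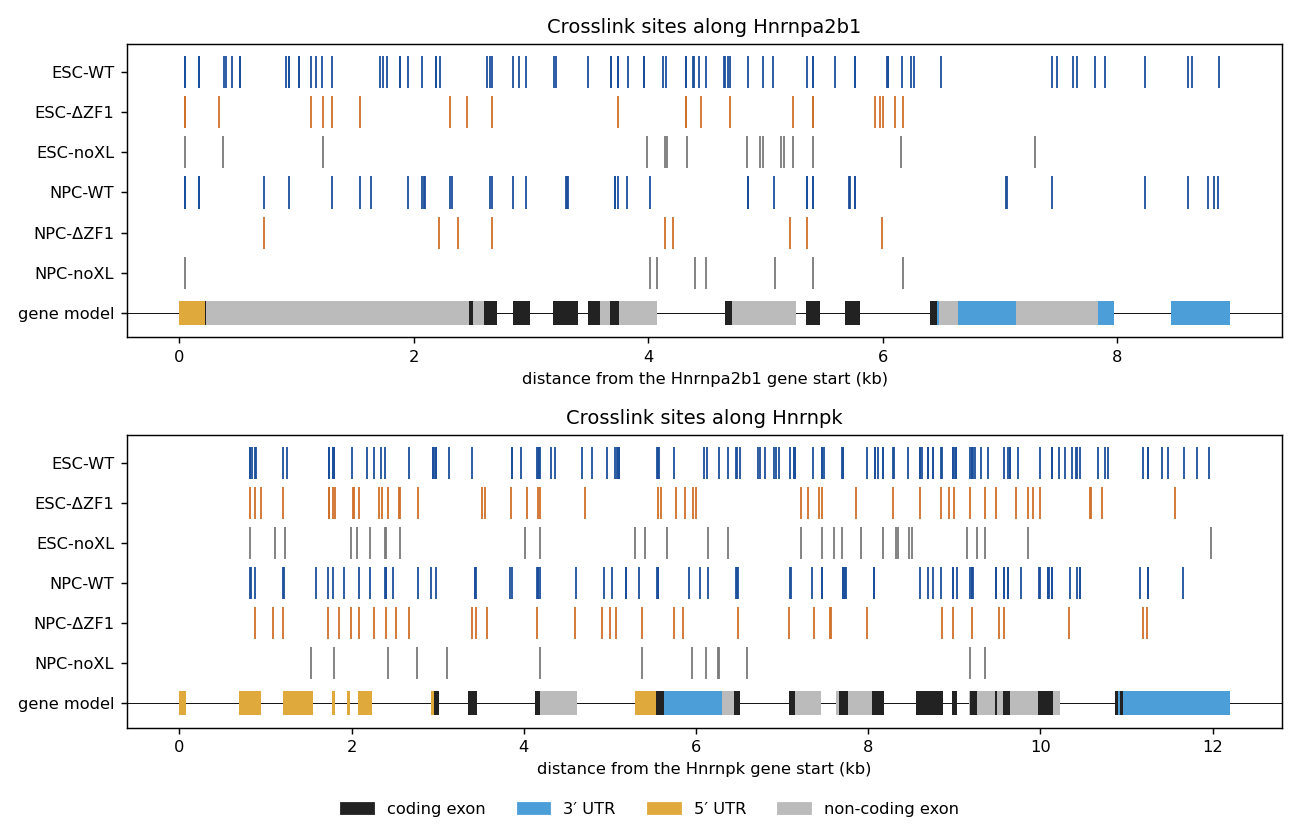
Crosslink sites along Hnrnpa2b1 (top) and Hnrnpk (bottom), as distance from the gene start in kb, with 1 line of ticks per list (blue WT, orange ΔZF1, grey noXL) above the merged gene model (black coding exon, blue 3′ UTR, yellow 5′ UTR, grey non-coding exon, thin line intron). Hnrnpa2b1 has 84 ticks in ESC-WT and 9 in NPC-ΔZF1, of which none is in a UTR, and Hnrnpk has 132 and 36.

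Summed over the 10 genes, the region makeup differed from that of other genes. Introns held 51.9% (49.4 to 54.4) of member sites in ESC-WT and 33.3% of other genic sites, and in each list the member share was higher, reaching 65.8% (59.4 to 71.7) in NPC-noXL against 42.6%. Coding exons held 20.9% (18.9 to 22.9) of member sites in ESC-WT against 36.5% elsewhere. With ΔZF1 the coding share of members was 14.3% (11.8 to 17.1) in ESCs, near the 13.3% (10.3 to 17.0) without UV. In NPCs it was 27.9% (24.9 to 31.1) with WT, 16.7% (13.3 to 20.8) with ΔZF1 and 7.11% (4.42 to 11.2) without UV. The sum is weighted to Hnrnpc and Hnrnpm, which have the most intron sequence and gave 260 and 186 of the 814 intron sites of ESC-WT. Gene by gene, the intron share in ESC-WT ran from 18.7% in Hnrnpu to 80.2% in Hnrnpc and was above that of other genic sites in 4 of 10 genes. The coding exon share was above that of other genic sites in 2 of 10.

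Summed over the 10 genes, sites of the UV lists were at uridine more often than other genic sites. In ESC-WT 69.9% (67.6 to 72.1) of member sites were at uridine and 60.6% of other genic sites. In NPC-WT the shares were 75.3% (72.2 to 78.1) and 64.6%. All 10 genes were above the other genic sites in both WT lists, from 61.2% in Hnrnpd to 81.0% in Hnrnpa2b1 in ESCs and from 67.0% in Hnrnpm to 85.1% in Hnrnpa2b1 in NPCs. With ΔZF1 the member share was 56.8% (52.9 to 60.5) in ESCs, beside 49.2% elsewhere, and 69.2% (64.4 to 73.7) in NPCs, beside 59.0%. There 8 and 9 of 10 genes were above the other genic sites, and Hnrnpa3 was lowest in ESCs at 35.5%. Among ESC-ΔZF1 sites at or above percentile 90 by score the order was turned, with 36.9% (27.4 to 47.6) for members and 46.0% elsewhere. Without UV it was 31.5% (27.1 to 36.2) and 25.8% (20.5 to 31.9), near the 28.3% and 27.9% of other genic sites. In ESC-WT the uridine share was 71.2% in exons and 68.7% in introns of the members. The 60.6% of other genic sites is over all regions and is not matched to these. The part of region makeup in the difference was not tested.

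Runs of uridine near the site were also more frequent. TTTT occurred within 10 nt of 32.7% of member sites in ESC-WT, and of 21.0% of other genic sites on the same strand. In NPC-WT the shares were 29.5% (26.5 to 32.7) and 18.1%, and without UV they were 17.6% and 10.8% in ESCs. The excess over other genes was thus present without UV as well. Hnrnpc had the highest share in ESC-WT, 43.8%, and Hnrnpl the lowest, 18.4%. The letters were searched on the RNA strand only, and a match describes the sequence and not a binding event.

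**Figure D4:**
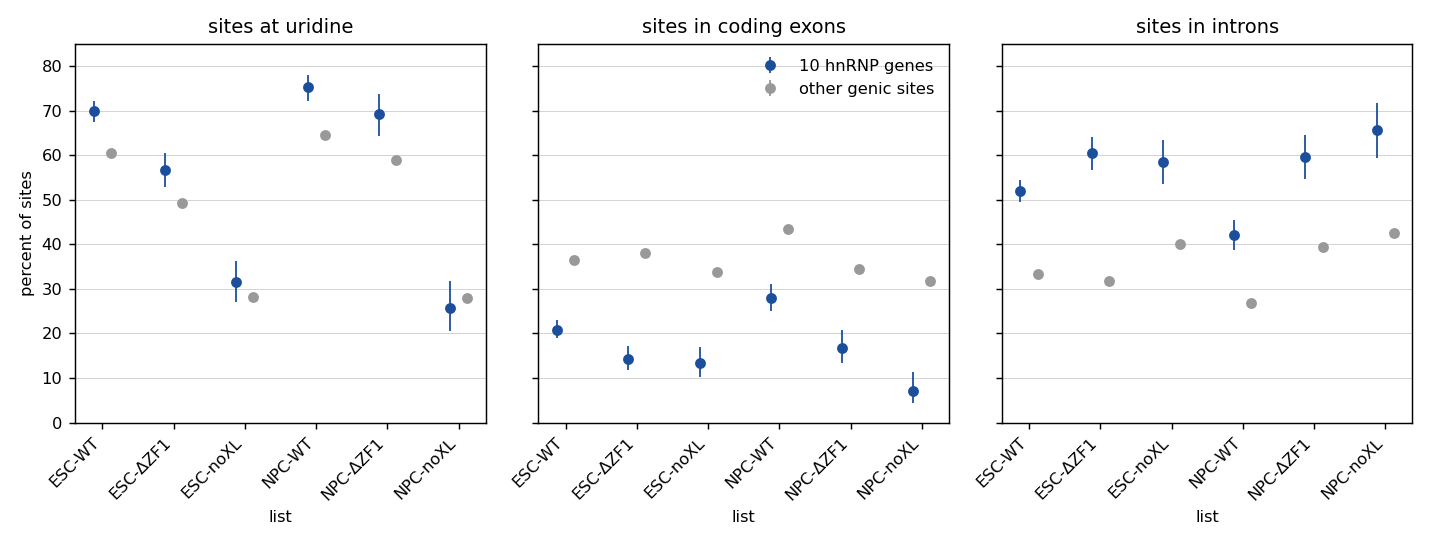
Percent of sites at uridine (left), in coding exons (middle) and in introns (right) in each of the 6 lists, for the 10 hnRNP genes and for all other genic sites, with 95% Wilson intervals that are hidden by the points for other genic sites. Member uridine shares exceed those of other genes in the 4 UV lists, reaching 75.3% in NPC-WT, and member sites are less often in coding exons and more often in introns in every list.

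Many sites recurred at the same place. Of the 659 member sites in ESC-ΔZF1, 31.1% (27.7 to 34.7) had an ESC-WT site within 5 nt on the same strand, beside 24.2% of other genic sites. After shifts of 500 and 1000 nt the shares were 8.23% for members and 4.22% for other genic sites. Of the 821 member sites in NPC-WT, 44.7% (41.3 to 48.1) had an ESC-WT site within 5 nt, beside 28.1% of other genic sites, and after the shifts 9.01% and 3.66%. The shifted shares were thus also higher for members, and their part in the differences from other genes was not tested. Sharing between ESC-ΔZF1 and ESC-WT was highest in Hnrnpa1, 65.4% (46.2 to 80.6) of 26 sites, and lowest in Hnrnpm, 18.8% (13.3 to 25.8) of 149 sites. In NPC-ΔZF1, 23.6% (19.6 to 28.1) of 377 member sites lay near an NPC-WT site, against 13.1% of other genic sites, and after the shifts 4.84% and 2.04%. Summed over the members, proximity to noXL sites was near that of other genes, at 7.33% (6.15 to 8.73) in ESC-WT beside 7.67% of other genic sites and 5.48% (4.12 to 7.26) in NPC-WT beside 5.64%. Single genes stood higher: in NPC-WT 19.6% (11.3 to 31.8) of the Hnrnpa1 sites were near a noXL site. In ESC-ΔZF1 it was 29.2% (14.9 to 49.2) in Hnrnpa2b1 and 26.9% (13.7 to 46.1) in Hnrnpa1, beside 8.69% of other genic sites, and these genes were among the 3 with the highest sharing between ESC-ΔZF1 and ESC-WT.

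Between the cell types with WT, 6 genes had point values above 0 and 4 below, beside 3537 and 3193 of 6730 genes. The scaled log2 ratio of NPC-WT to ESC-WT was -0.03 (-0.16 to 0.09) over the 10 genes, and no gene reached 1 or -1, compared with 11.5% and 10.4% of 6730 genes. The values ran from -0.30 (-0.63 to 0.01) in Hnrnpm to 0.58 (0.07 to 1.08) in Hnrnpa1, the only interval that left out 0, where 16.5% of all genes had an interval above 0 and 15.9% one below. By region and scaled to all genic sites, coding exons of the 10 genes had a log2 ratio of 0.38 (0.14 to 0.63) and introns -0.34 (-0.52 to -0.15). Scaled to sites of the same region these were 0.13 (-0.11 to 0.38) and -0.02 (-0.21 to 0.16), so both intervals then held 0. Without UV the sum was -0.23 (-0.47 to 0.00).

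Other RNA-binding protein genes were set beside the 10. Of 19 other hnRNP genes, 18 had enough sites in ESCs. Their median scaled log2 ratio of WT to noXL was 0.13, with 11 above 0 and 7 below, from -1.29 in Rbmx to 1.04 in Hnrnpll. Their median for ΔZF1 to WT was -0.05 in ESCs and -0.04 in NPCs, where the 10 members had -0.37 and -0.65. Of 13 SR splicing factor genes, 11 had enough sites, with a median of 0.38 for WT to noXL and -0.19 for ΔZF1 to WT in ESCs. In NPCs the SR median for ΔZF1 to WT was -0.46, and 4 of the 11 were at -1 or lower.

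The genes whose profile over the 6 lists was most like the summed family, out of 5472 genes with at least 60 sites in all, were Taf15, Chmp6 and Rsl1d1. The Euclidean distances of their centred log2 values were 0.13, 0.18 and 0.19, beside a median of 1.20 over all these genes. Taf15, which encodes an RNA-binding protein of the FET family, held 358, 145 and 94 sites in the WT, ΔZF1 and noXL lists of ESCs and 177, 85 and 52 in those of NPCs.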

How the data were processed

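CTCF iCLIP2 libraries of 6 groups (23 libraries) were available as 1 crosslink list per group. The authors used Flexbar for demultiplexing and trimming, STAR for alignment (mm10) and UMI-tools to collapse duplicates, then merged the libraries of a group and called sites with PureCLIP. The deposited score of each 1-nt site is the value PureCLIP gave it, not scaled to depth, and was used to rank sites, as medians within a list, for 1 site across lists, and as a minimum of 3.02 in an alternative. Read depth is unknown. Sites of chromosomes 1 to 19, X and Y were assigned to GENCODE M21 gene bodies on GRCm38, the build of mm10. A position in several regions was given to coding exon, then 3′ UTR, 5′ UTR, non-coding exon and intron. For each gene, 1 was added to both counts, the log2 ratio was scaled to genic sites, genes with fewer than 20 sites over the compared lists were left out, and limits were 1 and -1. Intervals were computed from the counts without this addition, as were the summed values. Sequences came from the reference genome, and 1 window is not reported here. All 10 genes, 19 other hnRNP genes, 13 SR genes, markers, the highest-scoring site per gene and positions found in all UV lists were named by rule. The members and lists were chosen with earlier results of these data known. The ratios and sharing were tested on simulated data. Python 3.11.15, numpy 2.4.6, pandas 2.3.3 and matplotlib 3.10.9 were used.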

Additional observations from a re-analysis of the deposited data

How the results depend on the processing

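No paired analysis was possible because sites were called on merged libraries, which also means that no library could be omitted. Summed over the 10 genes, the ratios kept their direction and stayed within their counting interval under median scaling, scaling to the own chromosome, merging of sites within 8 nt and removal of sites in a second gene on the strand. Removal of sites near noXL sites, run for ΔZF1 to WT in both cell types and for NPC-WT to ESC-WT, also left them so. The same held without Hnrnpa2b1, without Hnrnpc and without Hnrnpm, which were tried after seeing the data, except that NPC-WT to ESC-WT, near 0 throughout, moved from -0.03 to 0.02 without Hnrnpc and 0.01 without Hnrnpm. Whether the interval held 0 did change in several settings, among them the following. For ΔZF1 to noXL in ESCs it came to hold 0 without Hnrnpm (0.14), in exons (-0.035), at uridine (0.28) and with own-chromosome scaling (0.16). For the same ratio in NPCs it left out 0 without Hnrnpc (0.34). For ΔZF1 to WT in ESCs it came to hold 0 in introns (0.018). For NPC-noXL to ESC-noXL it left out 0 after merging (-0.27), in exons (-0.45), at scores of at least 3.02 (-0.44) and without Hnrnpc (-0.28). Log2 values that moved were as follows. Without scaling, ESCs and NPCs gave 2.00 and 1.87 for WT to noXL, 0.75 and 0.74 for ΔZF1 to noXL, and -1.25 and -1.12 for ΔZF1 to WT, and NPCs to ESCs -0.93 with WT and -0.80 without UV, since list length then enters. In exons alone, ΔZF1 to WT gave -0.59 and -0.79 for ESCs and NPCs, WT to noXL 1.11 for NPCs, and NPC-WT to ESC-WT 0.10, while ΔZF1 to noXL turned to -0.035 in ESCs. In introns alone, ΔZF1 to WT turned to 0.018 in ESCs and ΔZF1 to noXL rose to 0.60. With scores of at least 3.02, ESCs and NPCs gave 0.83 and 1.30 for WT to noXL and -0.45 and -0.89 for ΔZF1 to WT, with 0.41 for ΔZF1 to noXL in NPCs and 0.04 for NPC-WT to ESC-WT. At uridine alone, WT to noXL was 1.03 and ΔZF1 to noXL 0.50 in NPCs, and NPC-noXL to ESC-noXL was -0.50. The cause of these shifts was not tested.

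The count of members past a limit depended on the sites used: 1 member reached 1 for WT to noXL in ESCs (8.12% of all genes), but 6 with scores of at least 3.02 (11.4%), 3 at uridine (7.49%), 2 in exons (9.15%), 0 after merging (5.27%) and 10 without scaling (82.8%). In NPCs 4 did, but 3 in introns (10.6%), 5 in exons (9.12%), at uridine (10.9%) and at the higher scores (12.8%), and 10 without scaling (63.5%). For ΔZF1 to noXL no member reached 1, but in ESCs 1 did at uridine (6.97%), 1 in introns (13%) and 2 without scaling (25.1%), and in NPCs 2 at the higher scores (7.44%), 1 in exons (6.01%, Hnrnpl at 1.34) and 5 without scaling (27.4%). For ΔZF1 to WT, members at -1 or lower numbered 0 in ESCs, but 3 in exons (6.05% of all genes), 1 at uridine (5.5%), 1 without sites near noXL sites (6.39%) and 8 without scaling (47.1%). In NPCs they numbered 2, but 6 at the higher scores (9.81%), 1 after merging (6.25%), 1 in introns (12.9%) and 7 without scaling (28.4%). For NPC-WT to ESC-WT no member was past a limit, but 1 reached 1 in introns (16.8%, Hnrnpab at 1.33). Without scaling, 3 were at -1 or lower (41.9%). Coding exon shares of ESC-WT, ESC-ΔZF1, ESC-noXL, NPC-WT and NPC-ΔZF1 were 16.4%, 11.2%, 9.72%, 22.0% and 12.7% with UTRs placed before coding exons, and at the higher scores 29.0%, 21.9% and 38.5% in ESC-WT, ESC-ΔZF1 and NPC-WT. Sharing at the same position and within 20 nt was 17.6% and 47.2% for ESC-ΔZF1 in ESC-WT, 13.5% and 38.2% for NPC-ΔZF1 in NPC-WT, 27.9% and 61.5% for NPC-WT in ESC-WT, 14.6% and 38.8% for ESC-WT in NPC-WT, and 6.90% and 24.4% for NPC-ΔZF1 in ESC-ΔZF1. With noXL of the same cell type it was 2.30% and 15.1% for ESC-WT, 3.49% and 17.0% for ESC-ΔZF1, 1.46% and 10.6% for NPC-WT, and 1.33% and 8.49% for NPC-ΔZF1, and 5.78% and 20.0% between the noXL lists. Site numbers limit single genes, which held as few as 8 sites in NPC-noXL, 9 in NPC-ΔZF1 and 14 in ESC-noXL.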

Other observations

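Few sites lay on the strand opposite to the 10 genes. There were 5, 4 and 0 in the WT, ΔZF1 and noXL lists of ESCs and 2, 4 and 3 in those of NPCs. The 4 sites with ΔZF1 in each cell type all lay opposite Hnrnpk, whose body overlaps Rmi1 on the other strand.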
